A study of Mus musculus with 4 samples.

Results

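The 10 genes described here belong to the BCL2 family, whose proteins decide at the mitochondrion whether a cell survives or dies. They were chosen by symbol, with earlier results of these data known, so counts of called members below do not come from an unbiased set. Bcl2, Bcl2a1d, Mcl1 and Bcl2l1 stand for survival and Bax and Bak1 for effectors of death. Bcl2l11, Bbc3, Pmaip1 and Bid are BH3-only triggers. Of the 10, 9 had a row among the 19504 genes measured, each with a single row, and Bax was not analysed here. Mouse group 3 innate lymphoid cells (ILC3s), lymphocytes that lack rearranged antigen receptors and guard barrier surfaces, had been isolated by flow cytometry through a gate of CD90high, CD45low cells without lineage markers. The 4 samples were circZbtb20-/- cells (circZbtb20 KO), which lack a circular RNA made from exons of Zbtb20, their circZbtb20+/+ wild type (circZbtb20 WT), cells labelled Nr4a1-/- (Nr4a1 KO), in which an orphan nuclear receptor gene is disrupted, and their Nr4a1+/+ wild type (Nr4a1 WT). The labels give no treatment, and no age, strain, tissue or deleted exons for any group, nor do they say how many mice each sample holds. Each genotype was measured on 1 Affymetrix array, so no value below has a replicate error and no test of a genotype was possible.

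Survival members of the family, such as BCL2, MCL1, BCL-XL (the product of Bcl2l1) and A1 (the product of the Bcl2a1 genes), bind and hold back the pore-forming effectors BAX and BAK. BH3-only proteins, such as BIM (Bcl2l11), PUMA (Bbc3), NOXA (Pmaip1) and BID, bind the survival members or act on the effectors, and once BAX or BAK opens the outer mitochondrial membrane, cytochrome c is released and caspases are activated. In lymphocytes, cytokines that signal through the common gamma chain sustain Bcl2 and Mcl1 and restrain Bcl2l11. NR4A1 is itself linked to this family, since in thymocytes it is induced by strong receptor signals and can bind BCL2.

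Values are log2 expression as deposited. A gene was called higher or lower where its 2 values were at least 2-fold apart, which is 1 on the log2 scale, and the greater of them reached the median of its array, between 4.34 and 4.51. Differences are knockout minus its own wild type unless another array is named, and the difference between the wild types, Nr4a1 WT minus circZbtb20 WT, serves as the background. Levels of different genes are not compared, because each gene is read by its own probes.

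The labels were checked with the targeted gene and with marker genes. Nr4a1 itself was at 11.63 in the Nr4a1 KO, against 18.11 in the Nr4a1 WT, the lowest of the 4 arrays but not at background, and which part was deleted and where the probes lie are not known here, so this level checks nothing more. It was also lower in the circZbtb20 KO, at 15.98 against 19.93. Of 10 measured ILC3 markers, 9 were lower and 0 higher on the Nr4a1 KO array, with a median level of 5.49 there against 15.90 in the Nr4a1 WT. Kit stood at 5.48 against 18.36 and Ncr1 at 3.0 against 15.05. Of these, Ncr1 was under the array median of 4.34 and Kit above it, and 9 of the 10 ILC3 markers still reached that median. Il22 stayed at the highest value of the table, 19.93, on both arrays. All 14 measured T cell and thymocyte markers were higher on the same array, and the log2 of their summed level was 20.87 in the Nr4a1 KO against 10.90 in the Nr4a1 WT. The markers of this array thus go against its ILC3 label, which may not describe its content, and below "Nr4a1 KO" names the array so labelled. On the circZbtb20 KO array 4 of the 10 ILC3 markers were higher and 5 lower, with a median difference of -0.14. All 6 measured pancreatic acinar markers were lower in both knockouts, with a log2 summed level of 8.21 in the circZbtb20 KO against 17.51 in its wild type and of 6.69 in the Nr4a1 KO against 14.23. All 6 markers of NK cells and ILC1s were lower in both as well, at 11.56 against 15.22 and at 11.31 against 13.91. Epithelial markers were lower for 2 of 4 in the circZbtb20 KO and 4 of 4 in the Nr4a1 KO, and macrophage markers for 3 of 5 and 4 of 5. The wild types differed too, with 5 of 6 acinar markers lower and 3 of 4 epithelial markers higher in the Nr4a1 WT.

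**Figure D1:**
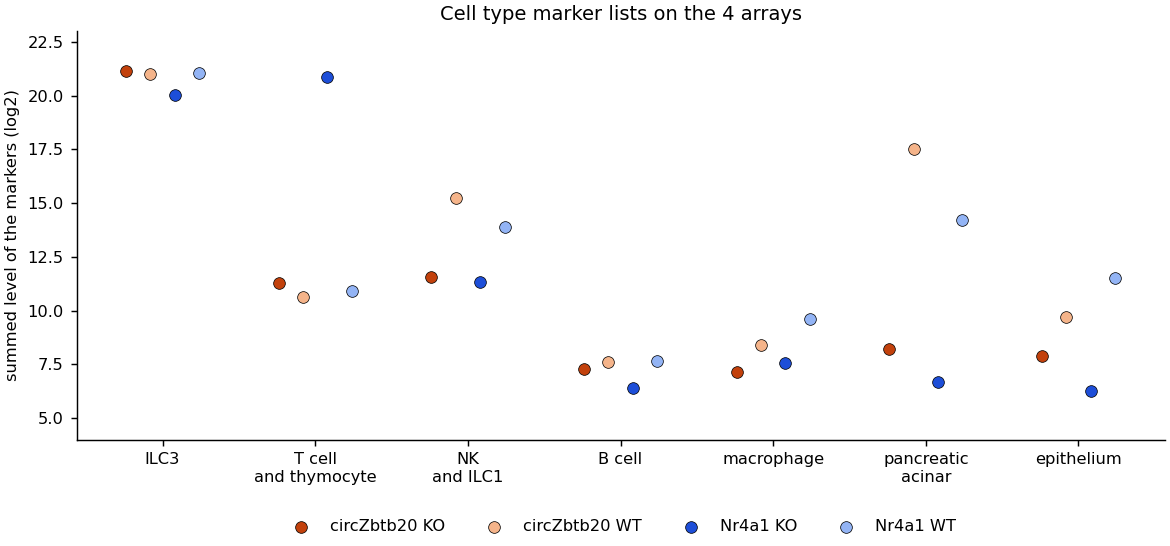
Log2 of the summed deposited level of each marker list (vertical axis) on the 4 arrays, 1 point an array. The T cell and thymocyte point of the Nr4a1 KO, at 20.87, stands far above the other 3 arrays, which lie between 10.65 and 11.30. The ILC3 sum of the Nr4a1 KO, 20.01, is carried by Il22 at 19.93.

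In the circZbtb20 KO, Mcl1 and the BH3-only gene Bcl2l11 were both far lower than in the wild type, and Bak1 and Bcl2 were lower too. In contrast, Bcl2a1d and Bcl2l1, which encode A1 and BCL-XL, were higher. The family therefore differed in both directions within the survival class, with 2 of its 4 members higher and 2 lower. Of the 9 measured members, 6 passed the filter on dim values, and of these 2 were higher and 4 lower, or 6 of 6, where 46.7% of the 11122 genes tested were called in either direction, 27.3% higher and 19.4% lower. With close to 1 in 2 genes called on this array pair, a call by itself sets no member apart.

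Mcl1 encodes the short-lived survival protein MCL1. It was at 4.98 in the circZbtb20 KO, against 8.92 in the circZbtb20 WT, while the Nr4a1 KO stood at 13.29 and the Nr4a1 WT at 10.64. The circZbtb20 KO was thus the lowest of the 4 arrays and only just above its array median of 4.38. Its difference of -3.94 was greater in size than that of 97.3% of the genes tested, and against the Nr4a1 WT it was -5.66. The wild types themselves differed by 1.72, which is less than either value.

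Bcl2, the founding survival gene of the family, was at 10.57 in the circZbtb20 KO, against 12.10 in the circZbtb20 WT. The Nr4a1 KO was at 13.36 and the Nr4a1 WT at 13.16, so the circZbtb20 KO was again the lowest array. The difference of -1.53, or -2.59 against the other wild type, stands beside 1.06 between the wild types. Its margin over that background is small against its own wild type, and 70.9% of the genes tested had a smaller difference.

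Bcl2l1 was at 11.75 in the circZbtb20 KO, against 10.16 in the circZbtb20 WT, 9.05 in the Nr4a1 KO and 10.67 in the Nr4a1 WT. Here the circZbtb20 KO was the highest array, by 1.59 over its own wild type and by 1.08 over the other. Bcl2a1d was at 16.26 in the circZbtb20 KO, against 14.44 in the circZbtb20 WT and 14.21 in the Nr4a1 WT, a difference of 1.82 and of 2.05. Its wild types lay -0.23 apart.

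Among the death genes, Bcl2l11, whose product BIM can bind every survival member, was at 8.42 in the circZbtb20 KO, against 11.78 in the circZbtb20 WT, 10.70 in the Nr4a1 KO and 12.31 in the Nr4a1 WT. The wild types were within 0.53 of each other, and both knockouts lay under both of them. In the circZbtb20 KO the difference was -3.36, greater in size than that of 95.2% of the genes tested, and -3.89 against the other wild type. Bak1, the effector that sits on the mitochondrial membrane, was at 3.81 in the circZbtb20 KO, against 6.17 in the circZbtb20 WT. That value is under the array median, so Bak1 passed the filter through its wild-type value alone. Its difference was -2.36, or -2.88 against the other wild type, both poorly measured, and its call was lost with a filter at the 75th percentile. Bbc3, between 3.45 and 3.80, and Bid, between 2.96 and 4.03, were under the median on all 4 arrays, and Pmaip1, at 3.93 against 4.22, was under it on both arrays of this pair, so no call was made for these 3 genes.

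**Figure D2:**
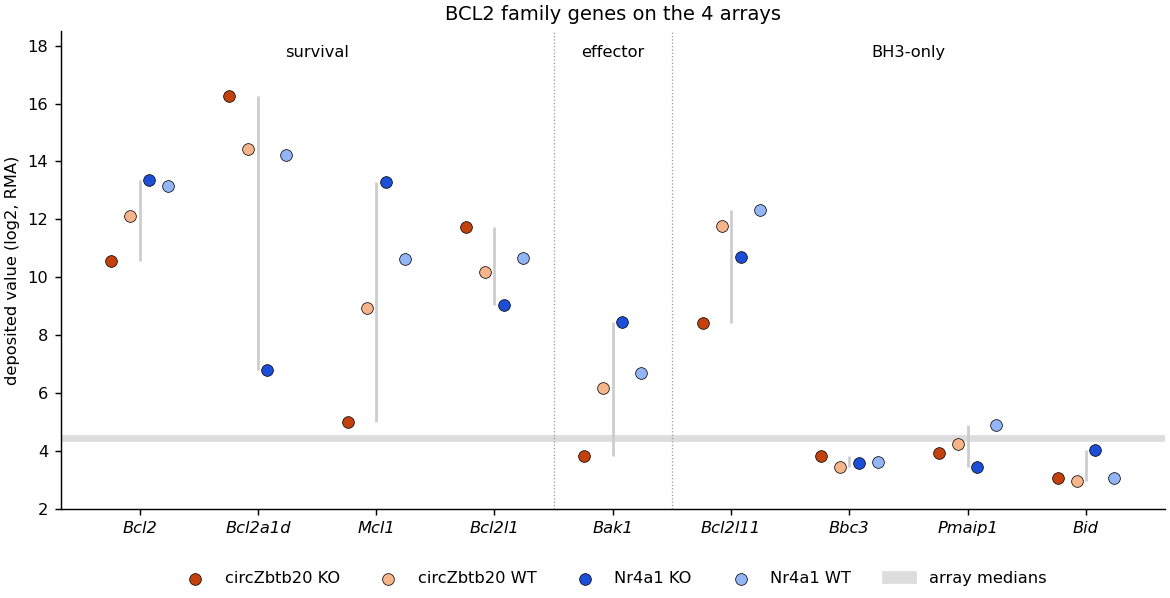
Deposited log2 value (vertical axis) of each measured family member on the 4 arrays, 1 point an array, with a grey line over the range of the 4 and a grey band over the array medians. Bcl2a1d in the Nr4a1 KO, at 6.78, and Mcl1 in the circZbtb20 KO, at 4.98, are the points farthest below the other arrays of their gene, and Bbc3 and Bid stay under the band.

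Over all 9 measured members, dim ones included, the median difference was -0.29, beside 0.04 over all 19504 genes. Fewer cells of a type and less RNA per cell cannot be told apart in such bulk samples. Acinar and NK cell markers, given above, were lower on the same array, and their part in these differences was not tested.

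In the Nr4a1 KO the member with the greatest difference was Bcl2a1d, which was lower, while Mcl1 and Bak1 were higher. Bcl2l1, Bcl2l11 and the dim gene Pmaip1 were lower, and Bcl2 was close to its wild type. Of the 7 members that passed the filter, 2 were higher, 4 lower and 1 not called, or 6 of 7 called, where 52.7% of the 11197 genes tested were called, 31.9% higher and 20.8% lower. Every one of these values comes from the array on which 14 of 14 T cell and thymocyte markers were higher and 9 of 10 ILC3 markers lower, and the part of that change in cell markers was not tested.

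Bcl2a1d, an early-response survival gene, was at 6.78 in the Nr4a1 KO, against 14.21 in the Nr4a1 WT, with 16.26 in the circZbtb20 KO and 14.44 in the circZbtb20 WT. The Nr4a1 KO stood well below the other 3 arrays, which span no more than 2.05. The difference was -7.43, or -7.66 against the other wild type, and 98.6% of the genes tested had a smaller one.

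Mcl1 was the opposite case, at 13.29 in the Nr4a1 KO, against 10.64 in the Nr4a1 WT. It was highest on this array, by 2.65 over its own wild type and by 4.37 over the circZbtb20 WT, against 1.72 between the wild types. Bak1, at 8.46 in the Nr4a1 KO against 6.69 in the Nr4a1 WT, was also highest here, by 1.77, with 0.52 between the wild types.

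Bcl2 was at 13.36 in the Nr4a1 KO, against 13.16 in the Nr4a1 WT, a difference of 0.20 that stayed under the 2-fold size. Against the circZbtb20 WT, which was lower, the same array was higher by 1.26, so whether Bcl2 is called depends on which wild type is used. The sign of the smaller value also depends on scaling, with a lowest value of -0.02 among the alternatives tried.

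Bcl2l1 was at 9.05 in the Nr4a1 KO, against 10.67 in the Nr4a1 WT, a difference of -1.62, or -1.11 against the other wild type. It was the lowest of the 4 arrays for this gene. Bcl2l11, at 10.70 against 12.31, differed by -1.61, or by -1.08 against the other wild type, which only just passes the 2-fold size. Pmaip1, which encodes the BH3-only protein NOXA that pairs mainly with MCL1, was at 3.43 in the Nr4a1 KO, against 4.89 in the Nr4a1 WT. That difference of -1.46 was -0.79 against the other wild type, where both values were under the array medians, and its call is thus lost there. With a filter at the 75th percentile the call was lost as well, and the Nr4a1 KO value under the array median makes the difference poorly measured. Bid, at 4.03 against 3.07, remained dim on both arrays. The median over all 9 measured members was -0.05, beside 0.0 over all 19504 genes.

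**Figure D3:**
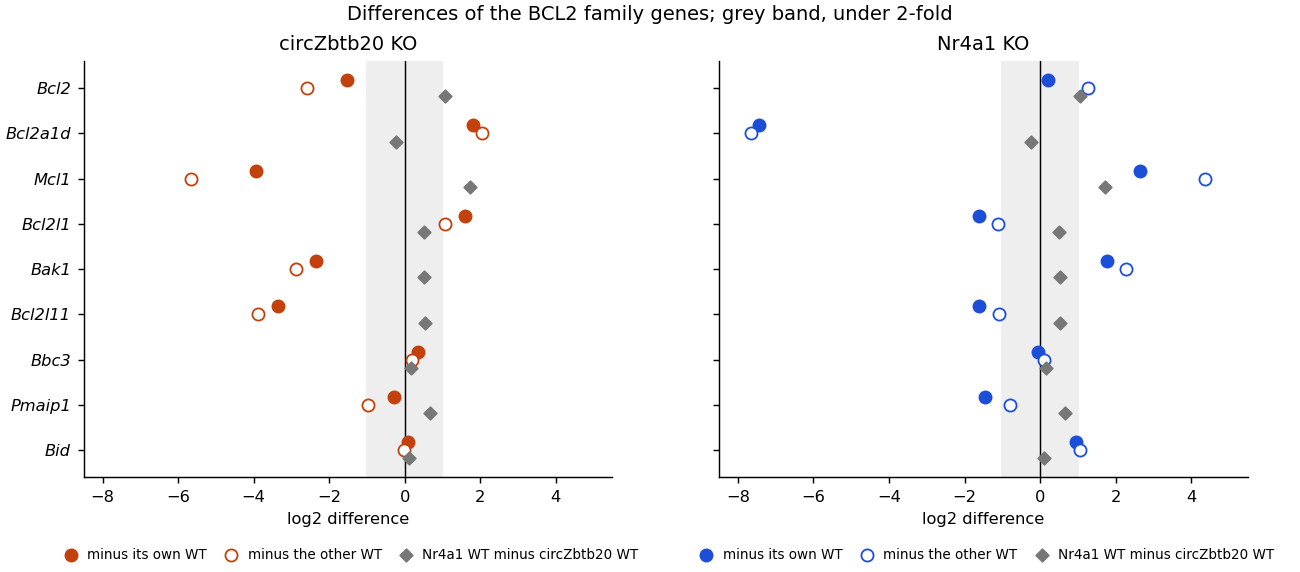
Log2 difference (horizontal axis) of each member in the circZbtb20 KO (left) and in the Nr4a1 KO (right), minus its own wild type (filled), minus the other wild type (open), with the difference between the wild types as grey diamonds and the range under 2-fold shaded. Mcl1, Bak1, Bcl2a1d and Bcl2l1 lie on opposite sides of 0 in the 2 panels, and Bcl2l11 lies below 0 in both.

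Set side by side, the 2 comparisons share no array, but that of the Nr4a1 KO also holds the marker differences given above, whose part was not tested. Of 6 members tested in both comparisons, 5 were called in both, and 4 of these in opposite directions, namely Mcl1, Bcl2a1d, Bcl2l1 and Bak1, the last dim in the circZbtb20 KO. Across all 10090 genes tested in both, 11.4% were called in opposite directions and 16.4% in the same direction. Mcl1 and Bak1 were lower in the circZbtb20 KO and higher in the Nr4a1 KO, while Bcl2a1d and Bcl2l1 were higher in the circZbtb20 KO and lower in the Nr4a1 KO. Bcl2l11 was the member lower in both, by -3.36 in the circZbtb20 KO and by -1.61 in the Nr4a1 KO. Bcl2, Mcl1 and Bak1 had the same order over the arrays, from the Nr4a1 KO down through the Nr4a1 WT and the circZbtb20 WT to the circZbtb20 KO, and Bcl2a1d had the reverse of that order. These directions were not put to a test, with 1 array a genotype.

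Since BIM acts by binding survival members, the change of each survival gene relative to Bcl2l11 was computed as the difference of their log2 differences. It describes unequal change on an array and not the amount of either RNA. For Bcl2 over Bcl2l11 the shift was 1.83 in the circZbtb20 KO and 1.81 in the Nr4a1 KO, although in the first both genes were lower and in the second Bcl2 hardly differed. Between the wild types the same ratio shifted by 0.53. Against the other wild type the shifts were 1.30 in the circZbtb20 KO and 2.34 in the Nr4a1 KO, so their likeness depends on the wild type used.

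For the other survival genes the knockouts parted. Mcl1 over Bcl2l11 shifted by -0.58 in the circZbtb20 KO, where both were lower than in the wild type, or by -1.77 against the Nr4a1 WT. In the Nr4a1 KO it shifted by 4.26, beside 1.19 between the wild types. Bcl2a1d over Bcl2l11 shifted by 5.18 in the circZbtb20 KO and by -5.82 in the Nr4a1 KO, with -0.76 between the wild types. Bcl2l1 over Bcl2l11 shifted by 4.95 in the circZbtb20 KO but by only -0.01 in the Nr4a1 KO, where the pair differed alike. Within the survival class, Bcl2a1d over Mcl1 shifted by 5.76 in the circZbtb20 KO and by -10.08 in the Nr4a1 KO, with -1.95 between the wild types.

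Between the wild types, 2 members were called, both higher in the Nr4a1 WT, and none was lower, where 15.2% of 10698 genes were called, 8.48% higher and 6.77% lower. These were Mcl1, by 1.72, and Bcl2, by 1.06. Mcl1 exceeded 96.7% of the genes tested in that background comparison, so that for this gene the choice of wild type moves the result by more than for most. The remaining members that passed the filter differed by 0.67 or less in size.

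Setting each knockout against the wild type of the other pair shows which calls rest on the choice of reference. For the circZbtb20 KO against the Nr4a1 WT, 7 members passed the filter, with the same 2 higher, Bcl2a1d and Bcl2l1, and the same 4 lower, where 47.4% of genes were called, 26.4% higher and 21.0% lower. For the Nr4a1 KO against the circZbtb20 WT, 6 members passed it, with 3 higher, now with Bcl2, and 3 lower, now without Pmaip1, where 53.2% of genes were called, 32.7% higher and 20.4% lower. Each array serves here in more than 1 comparison, so these values are no independent repeat.

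Mouse A1 is encoded by several near-identical genes on chromosome 9, and the signals of their probes may not be separable. Bcl2a1a was at 16.96 in the circZbtb20 KO, against 15.55 in the circZbtb20 WT, and at 8.90 in the Nr4a1 KO, against 15.06 in the Nr4a1 WT. Bcl2a1b was at 18.03 against 15.46 in the first pair and at 8.27 against 15.14 in the second. Both thus had the pattern of Bcl2a1d, with differences of 1.41 and 2.57 in the circZbtb20 KO and of -6.16 and -6.87 in the Nr4a1 KO. Bcl2a1c had a smaller range, from 5.42 in the Nr4a1 KO to 7.38 in the circZbtb20 KO. It was lower by -1.62 in the Nr4a1 KO and not called in the circZbtb20 KO, at 0.29. Cross-hybridisation was not tested, so these 4 rows cannot be taken as separate measurements of 4 genes.

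**Figure D4:**
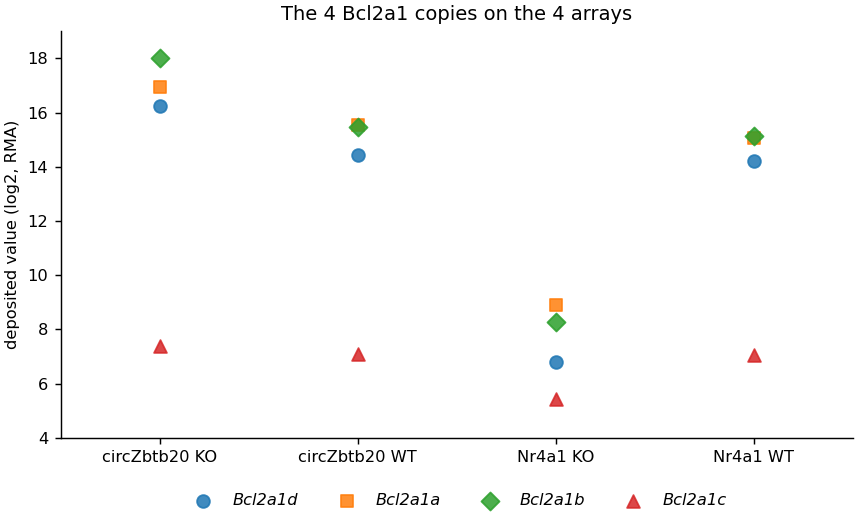
Deposited log2 value (vertical axis) of the 4 Bcl2a1 rows on each array. Bcl2a1d, Bcl2a1a and Bcl2a1b lie between 14.21 and 18.03 on 3 arrays and between 6.78 and 8.90 in the Nr4a1 KO, while Bcl2a1c stays between 5.42 and 7.38.

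How alike the copies are can be seen before their start sites, and a stretch of 100 bases from a shared anchor is shown for each, 5′ to 3′ on the strand of the gene (RefSeq, GRCm38.p6). Capitals mark letters of an AP-1-like motif, TGANTCA, in which any base was allowed at N, searched on both strands. Of 32851 RefSeq promoter windows, 6.75% hold this loose pattern in the 250 bases before the start. Each match marked here reads TGAATCA. The stretches are chr9:88731876-88731975 on the minus strand for Bcl2a1d, and on the plus strand chr9:88956789-88956888 for Bcl2a1a, chr9:89199098-89199197 for Bcl2a1b and chr9:114329894-114329993 for Bcl2a1c.
Bcl2a1d: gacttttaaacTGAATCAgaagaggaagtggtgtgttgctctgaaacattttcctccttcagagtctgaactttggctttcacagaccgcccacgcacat
Bcl2a1a: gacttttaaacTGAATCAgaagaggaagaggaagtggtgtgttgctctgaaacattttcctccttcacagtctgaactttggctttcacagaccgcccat
Bcl2a1b: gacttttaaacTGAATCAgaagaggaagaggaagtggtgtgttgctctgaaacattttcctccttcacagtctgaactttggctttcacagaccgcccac
Bcl2a1c: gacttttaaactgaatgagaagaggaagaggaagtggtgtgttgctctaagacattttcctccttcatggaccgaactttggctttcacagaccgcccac
Bcl2a1a and Bcl2a1b were identical at 99 of 100 aligned positions, Bcl2a1d matched Bcl2a1a at 92 and Bcl2a1b at 93 of 100, with 6 gap positions in each, and Bcl2a1c matched Bcl2a1d at 87. The motif letters are present in 3 of the 4 stretches, which says nothing of binding.

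Windows before the start sites of the other members were searched for the same motif, which none of them holds, and for 5 others on both strands, and 1 stretch each is shown for the survival gene and the death gene with the greatest differences in the circZbtb20 KO. The motif of NR4A1 monomers, AAAGGTCA, is present in 1.34% of the windows and in none of those of the members searched. A FOXO motif, GTAAACA, is present in 3.17% of the windows, among them the first of 2 Bcl2l11 windows, where it starts at -227 from the start site, and 1 of 3 Bbc3 windows. An NF-kB motif, spelled GGG, any 2 bases and TTTCC, is present in 1.41% of the windows, among them the Mcl1 window, on the opposite strand and starting at -28, and 1 window each of Bcl2l1 and Bbc3. A CRE motif, TGACGTCA, is in 1.55% of the windows, and a TATA motif, TATAAA, in 12.4%, and none of these windows holds either. Capitals mark the FOXO letters in chr2:128125788-128125907 and the NF-kB letters in chr3:95658601-95658720, both on the plus strand.
Bcl2l11: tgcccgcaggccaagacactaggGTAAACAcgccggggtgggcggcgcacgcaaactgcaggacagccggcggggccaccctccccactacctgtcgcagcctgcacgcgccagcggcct
Mcl1: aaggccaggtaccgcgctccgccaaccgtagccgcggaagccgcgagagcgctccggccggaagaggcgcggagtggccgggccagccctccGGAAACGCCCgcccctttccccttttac
A match of letters shows no binding, and Pmaip1 was not searched.

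Counts in the lists that follow are to be read against the shares of all genes tested, 46.7% called in the circZbtb20 KO (27.3% higher, 19.4% lower) and 52.7% in the Nr4a1 KO (31.9% higher, 20.8% lower). A list near those shares does not stand apart from other genes. Where only 1 value of a pair reached its array median, the difference is poorly measured, and this is said beside the gene.

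The remaining 17 genes of the BCL2 family were all measured, and their median differences were 0.16 in the circZbtb20 KO and -0.18 in the Nr4a1 KO. In the circZbtb20 KO 10 passed the filter, with 3 higher and 2 lower, or 5 of 10 called. Bcl2l2, which encodes the survival protein BCL-W, was at 3.13 in the circZbtb20 KO, against 6.03 in the circZbtb20 WT, or -2.90, with the knockout value under its array median. Bnip3l, a mitophagy receptor, was at 10.70 against 8.72, a difference of 1.98. Bad, a BH3-only gene that was dim in the knockout, differed by -1.12. On the Nr4a1 KO array 13 passed the filter, with 1 higher and 5 lower, 3 of which were Bcl2a1 copies. Bcl2l13 was at 7.69 against 5.69, a difference of 2.0, and Hrk, a BH3-only gene that was dim in the knockout, differed by -1.18.

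Downstream of the family, caspases and the apoptosome had 14 measured genes. In the circZbtb20 KO 4 of 9 tested were called, a share near that of all genes, with 1 higher and 3 lower. The Nr4a1 KO had 10 of 11 tested called, with 6 higher and 4 lower. Apaf1, the scaffold that cytochrome c assembles, was lower in both, at 8.20 against 9.86 in the circZbtb20 KO and at 6.96 against 10.83 in the Nr4a1 KO. Casp6, an executioner caspase, was at 4.36 against 5.80 in the circZbtb20 KO, a difference of -1.44 with the knockout value just under its array median, and at 10.47 against 6.07 in the Nr4a1 KO, a difference of 4.4. Casp2 had the same pair of directions, -1.22 in the circZbtb20 KO and 2.96 in the Nr4a1 KO. The inflammatory caspase gene Casp4 went the other way, with differences of 1.95 in the circZbtb20 KO and -7.98 in the Nr4a1 KO, and of 1.57 between the wild types.

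Inhibitors of apoptosis and their antagonists had 1 higher and 3 lower of 10 tested in the circZbtb20 KO, under the share of all genes called, and 3 higher and 6 lower of 12 in the Nr4a1 KO. Birc3, which encodes cIAP2, was at 13.79 against 16.20 in the circZbtb20 KO and at 10.42 against 16.57 in the Nr4a1 KO, lower by -2.41 and by -6.15. Septin4 was lower in both as well, by -2.12 and by -2.82. Diablo, whose product is released from mitochondria and blocks these inhibitors, was higher by 2.19 in the circZbtb20 KO. Birc5, the survivin gene of dividing cells, was higher by 3.42 in the Nr4a1 KO, with its wild-type value under the array median.

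Death receptors and their adaptors gave 4 higher and 4 lower of 13 tested in the circZbtb20 KO, and 4 higher and 6 lower of 14 in the Nr4a1 KO. Tnfrsf25, which encodes death receptor DR3, was at 11.29 against 7.39 in the circZbtb20 KO and at 5.68 against 7.63 in the Nr4a1 KO. Cflar, which encodes the caspase-8 inhibitor cFLIP, was higher by 2.68 in the circZbtb20 KO. Fas was at 7.68 in the Nr4a1 KO against 4.5 in the Nr4a1 WT, just under that array's median, a difference of 3.18, while Tnfrsf1b, for TNF receptor 2, was lower by -4.81.

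**Figure D5:**
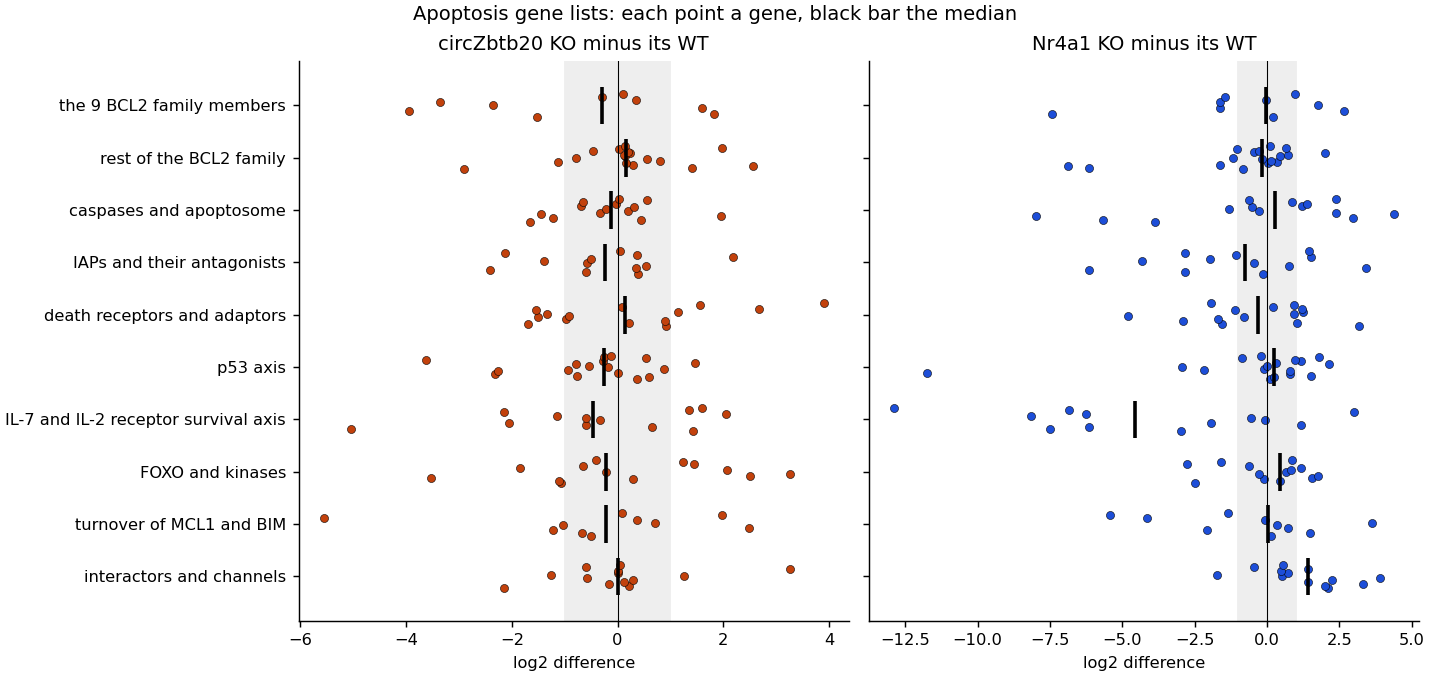
Log2 difference (horizontal axis, with its own scale in each panel) of every measured gene in the members and in 9 apoptosis-related lists, for the circZbtb20 KO (left) and the Nr4a1 KO (right), each minus its own wild type, with a black bar at the median and the range under 2-fold shaded. The IL-7 and IL-2 receptor list has the lowest median in the Nr4a1 KO, at -4.57, and the other medians of both panels lie between -0.76 and 1.41.

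Upstream, the list around the IL-7 and IL-2 receptors holds receptor and signalling genes, and also Socs1 and Cish, which restrain such signals. Its median is thus no measure of pathway activity. In the circZbtb20 KO this median was -0.46 over 12 genes, all tested, with 4 higher and 4 lower. Il2ra was at 7.18 against 12.22 there, and Stat5a, a transcription factor of this pathway, was at 9.67 against 11.73, lower by -5.04 and by -2.06. The kinase gene Pim2 was at 12.89 in the circZbtb20 KO against 10.83 in the circZbtb20 WT, a difference of 2.06, but its wild types lay 1.78 apart. In the Nr4a1 KO the median was -4.57, with 2 higher and 8 lower, beside the T cell and ILC3 marker values given above. Pim1 was at 11.02 against 19.19 and Il2ra at 5.14 against 12.64, and the list shares Kit and Il7r with the ILC3 markers.

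Genes of MCL1 and BIM turnover, listed with mRNA decay factors, had 2 higher and 3 lower of 10 tested in the circZbtb20 KO. Zfp36, an mRNA decay factor, was at 7.22 against 12.78, with 1.94 between the wild types. Zfp36l1, listed with it, went the other way, at 18.88 against 16.91, with 1.54 between the wild types. Usp9x, which removes ubiquitin from MCL1, differed by -1.22. Of the same genes 2 were higher and 4 lower in the Nr4a1 KO, where Zfp36l1 differed by -5.42 and Zfp36 by -4.15. Usp9x differed by -2.07 there, and Dynll1, for the dynein light chain that holds BIM, by 3.62. Fbxw7, a ubiquitin ligase subunit for MCL1, was higher by 1.47.

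The p53 axis, which induces Bbc3 and Pmaip1, had 1 higher and 3 lower of 13 tested genes in the circZbtb20 KO, under the share of all genes called. Its lowest were Bcl6, at 4.76 against 8.38, and Mdm4, lower by -2.32. For the Nr4a1 KO 4 were higher and 3 lower of 12 tested. There Cdkn1a, an inhibitor of cell division, was at 4.19 against 15.93, a difference of -11.74 that rests on a knockout value under the array median, while it stood at 16.0 on both arrays of the circZbtb20 pair. Zmat3 was higher by 2.14 and Sesn1 lower by -2.92.

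Genes with the most similar profile were found by the root mean square difference of log2 values centred on each gene's mean over the 4 arrays, among 11753 genes. With 4 arrays this is a description with no test. For Bcl2 they were Rnf20, at a distance of 0.073, Bzw2 at 0.078 and Tmem63a at 0.113. For Mcl1 they were Zfp36l2 at 0.434, Tle5 at 0.553 and Eef1b2 at 0.557, of which Zfp36l2 ran from 5.84 in the circZbtb20 KO to 15.16 in the Nr4a1 KO. For Bcl2a1d they were its copy Bcl2a1b at 0.344, Junb at 0.351 and Pde4b at 0.379, with Junb at 7.02 in the Nr4a1 KO against 15.23 in the Nr4a1 WT. For Bcl2l11 they were Sh2b3 at 0.163, Tchp at 0.173 and Fstl1 at 0.219.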

How the data were processed

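Expression was measured on 4 arrays, 1 for each genotype. The deposited values are log2 expression, made with Affymetrix Power Tools and RMA, per the submitters' processing notes, a method that usually corrects background, normalizes by quantiles and summarises probes. The deposited distributions were not identical between arrays, so which steps were applied is not known. Of versions, settings and genome build, none is stated in the sources used here. Values run from 2.13 to 19.93, and the highest is shared by 3 to 25 rows an array. No member reached it, and its origin is not known. The design text names another Affymetrix mouse array than the probe table. Of 22205 rows, 19571 had 1 gene symbol in the platform's probe table and 2634 had none. The brightest row was kept for the 55 genes with several, leaving 19504 genes.

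Groups follow the sample titles. Differences were taken over the whole table and called at 1 on the log2 scale with the higher value at or above the array median. The counting was run on simulated data with large shifts in bright genes and little noise. That run checks only that the code counts as stated, and it says nothing of the error of these arrays. Named genes were the members, up to 5 called genes with the greatest difference from each list, and the 3 nearest profiles of 4 members. Members and lists were chosen with earlier results of these data known. The number of arrays limits the precision, and detection calls were not used. Promoter windows came from RefSeq tables (GRCm38.p6), and bases after a start site were left out. Python 3.11.15, pandas 2.3.3, biopython 1.88, R 4.3.3 and limma 3.58.1 were used, the last for quantile and cyclic loess alternatives. Other alternatives were the other wild type, the mean of both, median centring, other filters, the mean of a gene's rows and a size of 2.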

Additional observations from a re-analysis of the deposited data

How the results depend on the processing

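Each of the 27 member differences was recomputed under the 5 alternatives that can change it, or 3 between the wild types. None of the called differences changed sign, and 9 of 117 values moved by more than 0.558. That size is the root mean square wild-type difference over all genes tested, divided by the square root of 2. It comes from 1 pair of arrays that also differ in markers, so it is no measure of array error. Those that moved were Bcl2, Mcl1 and Pmaip1 against the other wild type and Mcl1 against the mean of both wild types. A change of wild type moves a member by the wild-type difference or a part of it, so those moves restate that difference. Bcl2l1 in the circZbtb20 KO moved too, to 1.03 under quantile normalization. Median centring moved no member by more than 0.17 and could not reach 0.558, so 9 of 117 is no measure of robustness. The other filters, the mean of a gene's rows and the size rule cannot change a difference, as each member has a single row. Of the counts of called members, 70 of 81 stayed within 1.5 times. These include totals beside their parts, and counts over the mean of a gene's rows that could not change, so this share is no measure of robustness. An equal count can also hide a change of members. Against the other wild type the Nr4a1 KO again had 6 calls, but with Bcl2 and without Pmaip1. With a filter at the 75th percentile 5 members were called in each knockout, without Bak1 in the circZbtb20 KO and without Pmaip1 in the Nr4a1 KO. Under that filter 61.4% of all genes tested were called in the circZbtb20 KO and 67.5% in the Nr4a1 KO. With a size of at least 2 on the log2 scale, 3 members were called in the circZbtb20 KO, 0 of them higher, where 18.3% of genes were called. In the Nr4a1 KO 2 were then called, 1 higher and 1 lower, where 25.0% of genes were called. Between the wild types 0 were called at that size, where 1.91% of genes were. Under quantile normalization and under cyclic loess, 1 member in place of 2 was called between the wild types, since Bcl2 dropped under the size. Of all genes tested, 16.9% and 15.2% were called there. The median difference of all genes tested was 0.17 in the circZbtb20 KO and 0.29 in the Nr4a1 KO as deposited, and 0.027 and 0.092 after cyclic loess, and no member shifted by more than 0.56 under any scaling. A count that asked for the same call against each wild type was added after seeing the data. No paired analysis was possible because each genotype has 1 array and the labels number no replicates. Without replicates, no replicate could be left out. Differences that involve Bbc3, Bid, Pmaip1 or the Bak1 value of the circZbtb20 KO are poorly measured, as these values lie near background, and the calls of Pmaip1 and of Bak1 there rest on 1 value above the array median.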

Other observations

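Further lists around the family had members in both directions. Among FOXO factors and kinases that act on BH3-only genes, 5 were called higher and 4 called lower of 11 tested in the circZbtb20 KO, beside 27.3% higher and 19.4% lower over all genes tested. Akt1, a kinase downstream of growth factor receptors, was at 4.67 against 8.20 in the wild type, while Akt2 was at 7.95 against 5.45. Mapk8, which encodes the stress kinase JNK1, was at 8.89 against 5.63, a difference of 3.26. Of 11 tested in the Nr4a1 KO 3 were higher and 3 lower, beside 52.7% called over all genes, with Foxo1, a transcription factor that can induce Bcl2l11, at 6.75 against 9.24. The 2 rows of Ddit3, the CHOP gene, disagreed in size in the circZbtb20 KO, with differences of 1.23 in the brighter row and 4.65 in the other.

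Of 13 measured BCL2 interactors and mitochondrial channel genes, 7 were higher and 1 lower in the Nr4a1 KO, where 31.9% of all genes tested were higher and 20.8% lower. Its 13 genes, all tested, centred on 1.41, beside a median of 0.29 over every gene tested. Slc25a5, an ADP and ATP carrier of the inner membrane, was at 16.35 against 12.45, a difference of 3.90. Vdac1, Vdac2 and Vdac3, channels of the outer membrane, were higher by 2.10, 2.02 and 3.33. VDAC2 is a known partner of BAK, whose gene was higher on the same array. In the circZbtb20 KO the list had 2 higher and 2 lower of 11 tested, its median was 0.01, and Vdac1 was at 5.65 against 7.79 there. All values of the Nr4a1 KO were read on the array with the T cell markers, and the part of those cells was not tested.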
